A study of Mus musculus with 8 samples.

Results

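The miR-28, miR-708 and miR-151 family was examined in primary articular chondrocytes, the cells of joint cartilage, prepared from the femoral heads of wild-type mice that were 3 weeks old. Cells received vehicle (n = 4 libraries) or 1 ng/ml IL-1β (n = 4 libraries), an inflammatory cytokine whose receptor signals through NF-κB, for 24 h, and small RNAs were sequenced to find miRNAs that respond to inflammation. No source used here stated whether the libraries came from separate animals or cultures, so the errors given describe the spread between these libraries, which may be technical. The family comprises 6 mature miRNAs of the 1966 names in the table of read counts, namely the 5p and 3p arms of miR-28a, miR-708 and miR-151. They were taken by name, but the family had been selected on the change of its arms between IL-1β and vehicle in these same 8 libraries, in which the fall of miR-708-5p was already known. Every difference between the groups below is therefore a description, and no p-value is printed for it. The calls and intervals given for the arms do not allow for this selection.

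A miRNA is cut from one arm of a hairpin precursor and guides a silencing complex to mRNAs that pair with its seed, bases 2 to 8 from the 5′ end. Usually one arm is kept and the other is degraded, so the ratio of the arms tells which strand a cell retains. miR-28, miR-708 and miR-151 are related in sequence, and the hairpins of miR-28 and miR-151 are held to derive from a LINE-2 repeat. All 3 sit inside long protein-coding genes. Lpp encodes a LIM domain protein of focal adhesions, Tenm4 a transmembrane protein of the teneurin family, and Ptk2 focal adhesion kinase. In cartilage, focal adhesions link chondrocytes to the collagen and proteoglycan matrix around them.

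The mature sequences show why the arms are treated as relatives. Of the 6 arms, 4 were matched by name to RefSeq sequences (GRCm38.p6), shown 5′ to 3′ with the seed in capitals, while the arms of miR-151 are named only.
mmu-miR-28a-5p: aAGGAGCUcacagucuauugag
mmu-miR-708-5p: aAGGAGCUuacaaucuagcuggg
mmu-miR-28a-3p: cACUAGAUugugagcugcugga
mmu-miR-708-3p: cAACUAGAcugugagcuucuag

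miR-28a-5p and miR-708-5p carried the same seed, AGGAGCU, and were identical over their first 8 bases. Over 22 positions counted from the 5′ end of miR-28a-5p they shared 16 bases, and differed by C9U, G13A, U18G, U19C, G20U and A21G. Among the 1675 names of the table that could be matched to a RefSeq sequence, no other had this seed. The 3p arms were also alike, sharing 17 of 21 bases when miR-708-3p was shifted by 1 base, but this shift gave them different seeds, ACUAGAU and AACUAGA. A stretch of 13 bases in miR-708-3p, written UAGACUGUGAGCU, was the exact reverse complement of a stretch of miR-28a-5p. The other miR-28 names in the table, mmu-miR-28b and mmu-miR-28c, were listed at 0 in all 8 libraries, which allows up to 1.91 CPM (counts scaled to one common library total) in the deepest library and 4.87 CPM in the shallowest.

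The 3 hairpins lay on different chromosomes (GENCODE vM21, GRCm38), each in an intron of its host and on the same strand as the host. Mir28a occupies chr16:24827855-24827940 (plus strand) within Lpp, in a gap of 79965 bases between annotated exons. Mir708 occupies chr7:96249424-96249532 (plus strand) within Tenm4, in a gap of 143365 bases. Mir151 occupies chr15:73254815-73254882 (minus strand) within Ptk2, in a gap of 13786 bases. It also lay opposite an intron of the antisense gene 1700085D07Rik, and whether strand was used in counting was not stated.

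Library totals ranged from 616475 to 1568367 counts, so that 1 count was worth 0.638 to 1.62 CPM. Levels below are normalized CPM, with library totals adjusted by TMM factors (a trimmed mean of log ratios between libraries), and fold changes are from the quasi-likelihood fit of edgeR over the 564 miRNAs that exceeded 1 CPM in at least 4 libraries. All 6 arms passed this filter. IL-1β replicate 4 stood apart from the rest of its group. Its counts differed from those of the other IL-1β libraries with a chi-square per degree of freedom of 51.9 to 82.9, against 7.01 to 9.65 among those libraries and 4.54 to 17.3 among vehicle libraries, and its TMM factor was the lowest of the 8 (0.932 against 0.985 to 1.04). Without it, 19 miRNAs were called in place of 11, and values of the family without it are given below. The cartilage miRNAs, both arms of miR-140 and miR-455, were all detected and took 15.6% to 16.8% of counts with vehicle and 12.4% to 15.3% with IL-1β. Of the markers of other cells, all those of muscle (miR-1a-3p, miR-133a-3p, miR-133b-3p and miR-206-3p) were at 0 counts throughout. So were miR-451a, miR-144-3p, miR-142a-3p and miR-223-3p of the haematopoietic list and miR-122-5p of the liver or serum list, but other members of these 2 lists had counts. Of 7 haematopoietic markers 3 had counts, with 370 for miR-150-5p, 4 for miR-142a-5p and 2 for miR-223-5p. Their summed share was 0.00452% to 0.00638% with vehicle and 0.0026% to 0.00471% with IL-1β. miR-150-5p had means of 52.7 CPM with vehicle and 35.7 CPM with IL-1β, levels near those of the miR-28a arms given below. Of 3 liver or serum markers 2 had counts, at 0.00521% to 0.00714% with vehicle and 0.00714% to 0.0109% with IL-1β. Of 6 epithelial markers 4 had counts, at 0% to 0.000158% and 8.73e-05% to 0.000719%. Of 2 endothelial markers 1 had counts, at 0% to 0.000191% and 0% to 0.000288%. In such bulk cultures, fewer cells of a type and less RNA per cell cannot be told apart, and the part of these shares in the differences below was not tested.

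The arms differed widely in level, with the miR-151 hairpin far above its relatives. The arms are all 21 to 23 nt long, so length does not weigh on their order, but ligation and PCR during library preparation favor some sequences. No molecular identifiers were described, so reads are not independent molecules, and the order and the counting errors below describe reads. With vehicle, miR-151-3p was at 14311 ± 534 normalized CPM (SD, n = 4), 10.3 times the level of miR-151-5p at 1392 ± 60.6. miR-708-5p followed at 89.0 ± 9.39, ahead of miR-28a-3p at 58.9 ± 13.4, miR-28a-5p at 55.5 ± 2.86 and miR-708-3p at 20.4 ± 2.77. The libraries of neighbors in this order did not overlap, except for the arms of miR-28a, which did. Among the 564 tested miRNAs these means ranked 13 (miR-151-3p), 49 (miR-151-5p), 163 (miR-708-5p), 187 (miR-28a-3p), 191 (miR-28a-5p) and 265 (miR-708-3p). With IL-1β the order changed in the middle, where miR-28a-5p stood above miR-28a-3p by 1.40 times with no overlap, and miR-708-5p and miR-28a-5p now overlapped.

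**Figure D1:**
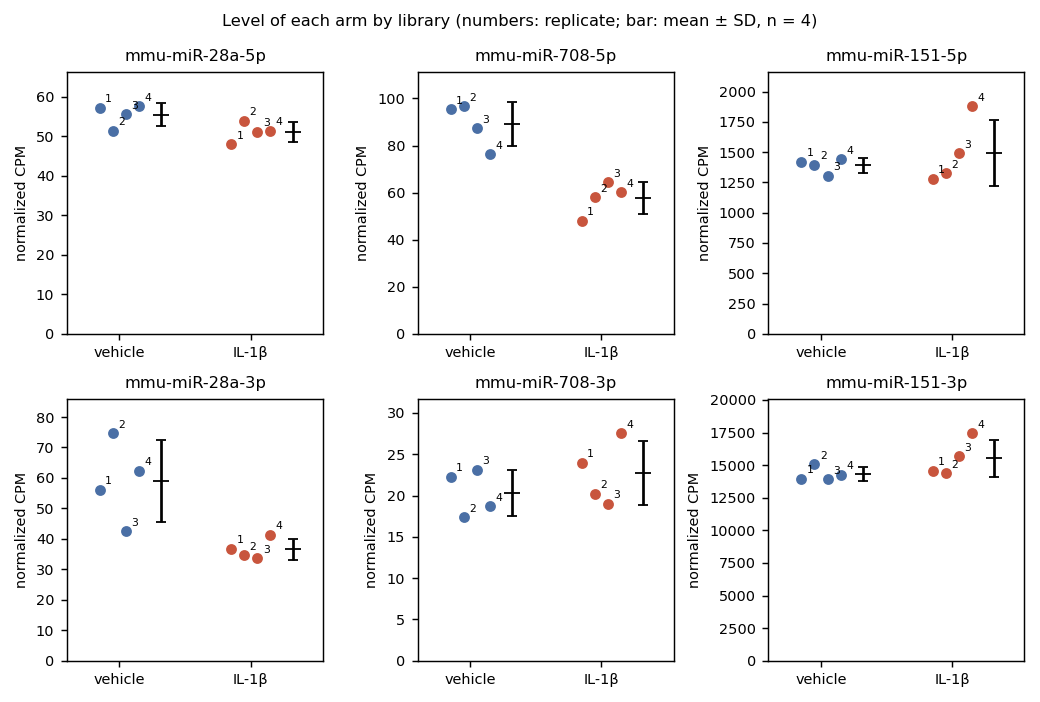
Normalized CPM of each arm (vertical axes from 0, one panel per arm) in the 4 vehicle (blue) and 4 IL-1β (red) libraries, with replicate numbers and, beside them, the mean and SD. The red points of mmu-miR-708-5p (48.0 to 64.3) and mmu-miR-28a-3p (33.6 to 41.4) all sit below the blue ones, and those of the other 4 arms overlap them.

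With IL-1β, 2 arms were lower in every library, miR-708-5p and miR-28a-3p, while the opposite arms of the same hairpins overlapped between the groups. Of the 6 arms, 1 was called (adjusted p under 0.05 in the edgeR fit and absolute log2 fold change over 0.3), and it was lower. The background was 11 of 564 tested miRNAs called, or 1.95%, and 3 of 564, or 0.532%, called lower. Leaving out each library in turn, 1 to 4 miRNAs were called lower, with 1 without IL-1β replicate 1. Groups that did not overlap with IL-1β lower were found for 2 of the 6 arms and for 17 of 564 miRNAs (3.01%). The median log2 fold change was 0.00 over the 6 arms and 0.01 over the 564, and 3 arms had negative and 3 positive values. As the family was chosen on this comparison, nothing is read from these counts.

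miR-708-5p, the more abundant arm of its hairpin, was at 95.4, 96.8, 87.5 and 76.3 normalized CPM in vehicle replicates 1 to 4. The IL-1β libraries, in the same order, had 48.0, 58.2, 64.3 and 60.2 normalized CPM. The lowest vehicle library thus stood above the highest IL-1β library. Mean normalized CPM fell from 89.0 ± 9.39 to 57.6 ± 6.93 (SD, n = 4). The log2 fold change was -0.63 (SE 0.145, 95% interval -0.93 to -0.33), and this was the arm called. These levels rested on 49 to 145 counts per vehicle library and 30 to 69 per IL-1β library. The coefficient of variation was 10.6% with vehicle and 12.0% with IL-1β, close to the 9.71% and 14.5% that counting error alone gives at these depths. Without IL-1β replicate 4 the log2 fold change was -0.65 and the arm was called. The call was lost without vehicle replicate 2 (log2 fold change -0.59) or without IL-1β replicate 1 (-0.57).

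miR-28a-3p was at 56.2, 74.7, 42.5 and 62.3 normalized CPM in vehicle replicates 1 to 4. With IL-1β the corresponding levels were 36.8, 34.6, 33.6 and 41.4 normalized CPM. All IL-1β libraries were lower, but vehicle replicate 3 and IL-1β replicate 4 nearly met. The means were 58.9 ± 13.4 and 36.6 ± 3.46 normalized CPM (SD, n = 4). The log2 fold change was -0.68 (SE 0.192, 95% interval -1.08 to -0.29). This point estimate was further from 0 than that of miR-708-5p, yet miR-28a-3p was not called. Its spread with vehicle, 22.8% of the mean, exceeded the 12.1% of counting error, while that with IL-1β was 9.45% against 18.3%. It was called without vehicle replicate 3 (-0.84) or without IL-1β replicate 4 (-0.74). Of the 564 tested miRNAs, 45 had a lower log2 fold change than miR-28a-3p and 55 a lower one than miR-708-5p.

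The opposite arms of these hairpins did not pass the call rule. miR-28a-5p, the arm with the shared seed, was at 57.3, 51.4, 55.6 and 57.6 normalized CPM in vehicle replicates 1 to 4 and at 48.0, 53.9, 51.1 and 51.4 in IL-1β replicates 1 to 4. Its groups overlapped, since vehicle replicate 2 lay within the IL-1β range. The log2 fold change was -0.10 (SE 0.152, 95% interval -0.41 to 0.21), so that a level of 0.75 to 1.16 times that with vehicle lies within the interval. Leaving out IL-1β replicate 4 gave a log2 fold change of -0.09. miR-708-3p, the scarcest of the family at 12 to 37 counts per library, was at 22.3, 17.4, 23.1 and 18.7 normalized CPM in vehicle replicates 1 to 4. With IL-1β the levels were 24.0, 20.2, 19.0 and 27.6 normalized CPM, with replicates 1 and 4 above the highest vehicle library and replicates 2 and 3 within the vehicle range. Its log2 fold change was 0.14 (SE 0.236, 95% interval -0.35 to 0.63), which allows a level of 0.785 to 1.54 times that with vehicle. Without IL-1β replicate 4 the log2 fold change was 0.03.

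Both arms of miR-151 had far more counts, at least 800 per library, and were not called. miR-151-3p was at 13973, 15077, 13919 and 14277 normalized CPM in vehicle replicates 1 to 4 and at 14579, 14377, 15710.0 and 17465 in IL-1β replicates 1 to 4. Its log2 fold change was 0.12 (SE 0.0827, 95% interval -0.05 to 0.29). miR-151-5p was at 1422, 1397, 1305 and 1442 normalized CPM in vehicle replicates 1 to 4 and at 1279.7, 1325, 1489 and 1879.9 in IL-1β replicates 1 to 4. Its log2 fold change was 0.10 (SE 0.101, 95% interval -0.11 to 0.31). With IL-1β its coefficient of variation was 18.3%, against 2.86% from counting error alone. IL-1β replicate 4 was the highest of all 8 libraries for both arms. Without that library the log2 fold changes were 0.06 for miR-151-3p and -0.025 for miR-151-5p, the latter with the opposite sign. The lower ends of both intervals lay above the upper ends of those of miR-708-5p and miR-28a-3p. As the family was chosen on these fold changes, this is a description and not a test between arms.

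**Figure D2:**
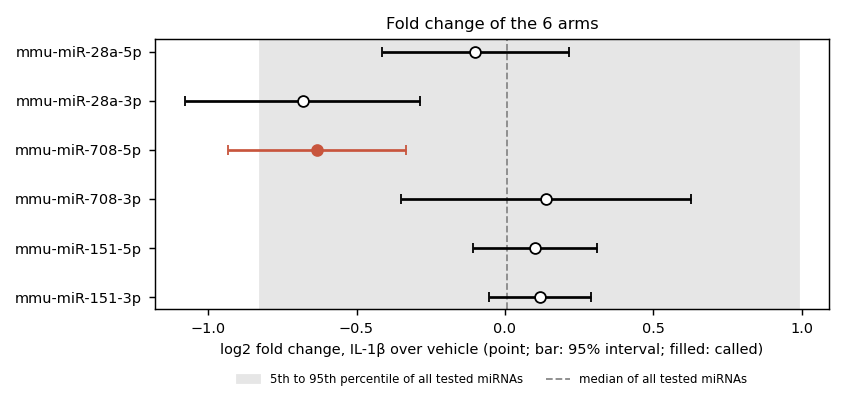
Log2 fold change of each arm, IL-1β over vehicle (horizontal axis), with its 95% interval from the edgeR fit, a filled point marking the arm called. The grey band spans the 5th to 95th percentile of the 564 tested miRNAs (-0.83 to 0.99) and the dashed line their median (0.01). The intervals of mmu-miR-28a-3p and mmu-miR-708-5p lie below 0 and those of the other 4 arms span it.

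The ratio of the arms was then compared, since it is taken within a library and does not depend on scaling between libraries. It was computed as the log2 of 5p over 3p counts, with 0.5 added to each count. For miR-708, the ratio of 5p to 3p counts was 4.29, 5.58, 3.78 and 4.08 in vehicle replicates 1 to 4. The IL-1β libraries, in the same order, had ratios of 2.00, 2.88, 3.38 and 2.18, below every vehicle library. The 5p arm thus made up 79.1% to 84.8% of the reads of the hairpin with vehicle and 66.7% to 77.2% with IL-1β, and remained the major arm in all 8 libraries. The mean log2 ratio was 2.11 ± 0.244 in the vehicle group and 1.33 ± 0.345 in the IL-1β group (SD, n = 4), a difference of -0.78 (SE 0.211 from the libraries, 0.256 from counting alone), and -0.70 without IL-1β replicate 4.

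For miR-28a the arms were nearly even, and the mean ratio was higher with IL-1β. The ratio of 5p to 3p counts was 1.02, 0.688, 1.31 and 0.925 in vehicle replicates 1 to 4 and 1.30, 1.56, 1.52 and 1.24 in IL-1β replicates 1 to 4. The groups overlapped through vehicle replicate 3, the vehicle library with the least miR-28a-3p. The 5p arm exceeded the 3p arm in all 4 IL-1β libraries and in 2 of the 4 vehicle libraries. The mean log2 ratio was -0.06 ± 0.382 and 0.48 ± 0.161 (SD, n = 4), a difference of 0.54 (SE 0.207 from the libraries, 0.213 from counting alone), and 0.59 without IL-1β replicate 4.

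For miR-151 the 3p arm dominated in every library, with the 5p arm at 8.48% to 9.24% of its reads with vehicle and 8.07% to 9.72% with IL-1β. The mean log2 ratio was -3.36 ± 0.0706 and -3.39 ± 0.126 (SD, n = 4), a difference of -0.03 (SE 0.0720), and -0.09 without IL-1β replicate 4. The groups overlapped, with the lowest ratio in IL-1β replicate 1 and the highest in IL-1β replicate 4.

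**Figure D3:**
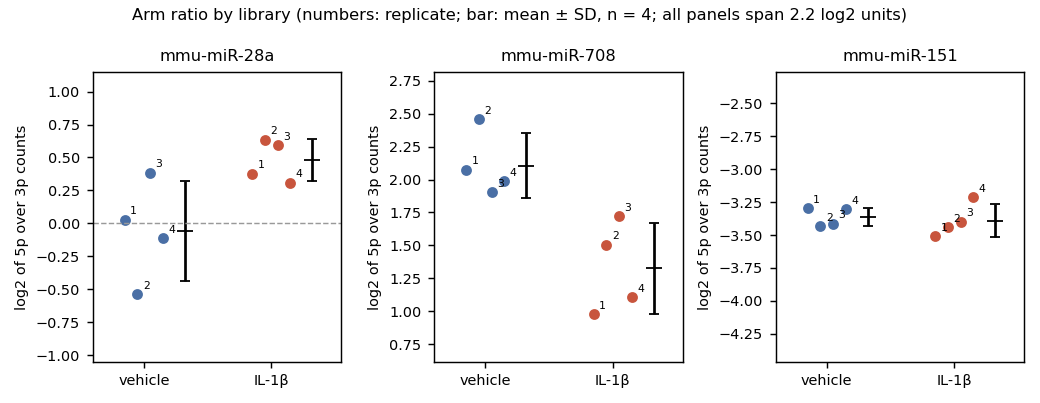
Log2 of 5p over 3p counts of each hairpin (vertical axes of equal span) in the 4 vehicle (blue) and 4 IL-1β (red) libraries, with replicate numbers and the mean and SD. The dashed line in the panel of mmu-miR-28a marks equal arms. For mmu-miR-708 all red points lie below the blue ones, for mmu-miR-28a they lie higher with an overlap, and for mmu-miR-151 both groups lie near -3.4.

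These differences were set beside those of the 142 hairpins with both arms tested. Groups of arm ratios that did not overlap were found for 1 of the 3 hairpins of the family, miR-708, and for 6 of the 142 (4.23%). Over the 142, the median difference was 0.07, with 5th and 95th percentiles of -0.87 and 1.31, and the difference of miR-708 was the 12th lowest, that of miR-28a the 29th highest and that of miR-151 the 58th from the lowest. Among the 57 hairpins with a mean of at least 10 counts on both arms, a limit chosen after the data were seen, these percentiles were -0.57 and 0.54. In that set the difference of miR-708 was the lowest, that of miR-28a was the 4th highest, and that of miR-151 was 20th from the lowest. The rank of miR-708 is a description, since its 5p arm was among the values on which the family was selected.

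**Figure D4:**
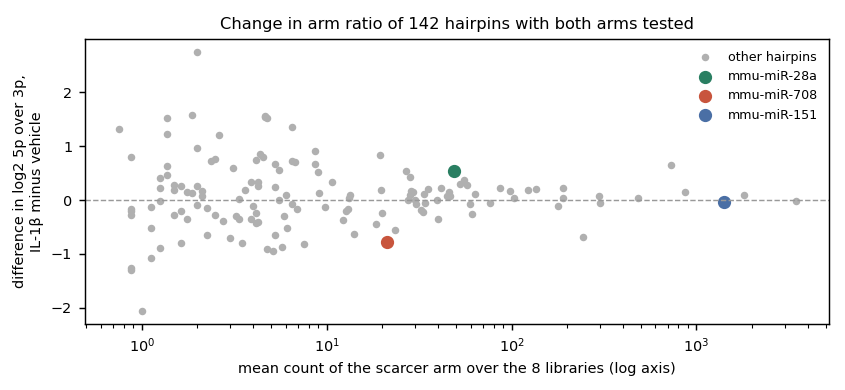
Difference in the mean log2 arm ratio, IL-1β minus vehicle (vertical axis), against the mean count of the scarcer arm (horizontal log axis) for 142 hairpins, with the 3 hairpins of the family in color. mmu-miR-708 lies at -0.78, mmu-miR-28a at 0.54 and mmu-miR-151 at -0.03, and the spread of the grey points narrows as counts rise.

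miR-28a-5p and miR-708-5p carry the same seed, so their levels were also summed. The sum was 153, 148, 143 and 134 normalized CPM in vehicle replicates 1 to 4 and 96.0, 112, 115 and 111.5 in IL-1β replicates 1 to 4, with no overlap. The mean was 144.5 ± 8.03 in the vehicle group and 108.8 ± 8.70 in the IL-1β group (SD, n = 4), a difference of -0.41 on the scale of log2(CPM + 1) (SE 0.0717 from the libraries), and -0.42 without IL-1β replicate 4. This SE may be too small. The coefficient of variation of miR-28a-5p, 5.16% with vehicle and 4.77% with IL-1β, was below the 12.5% and 15.3% of counting error. Of the difference of -35.7 normalized CPM between the means, miR-708-5p made up -31.4 (the difference of its means) and miR-28a-5p -4.36. miR-708-5p accounted for 57.0% to 65.3% of the sum with vehicle and 50.0% to 55.7% with IL-1β. In IL-1β replicate 1 both arms had 30 counts. miR-708-5p was the larger part in all 4 vehicle libraries and in 3 of the 4 IL-1β libraries.

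**Figure D5:**
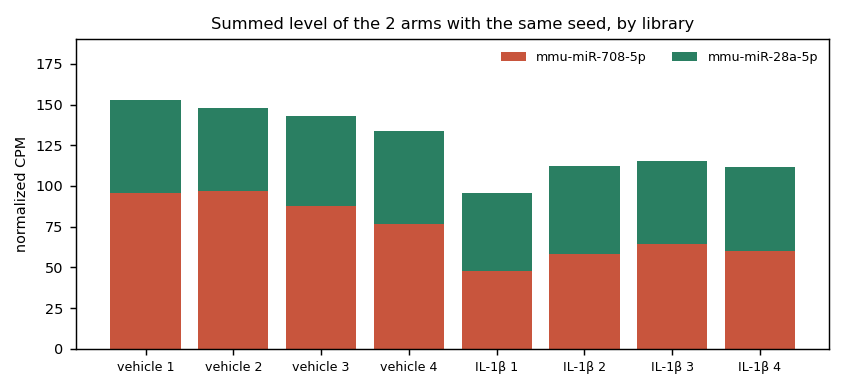
Normalized CPM (vertical axis from 0) of mmu-miR-708-5p (red) and mmu-miR-28a-5p (green), stacked, in each of the 8 libraries. The 4 vehicle bars reach 134 to 153 and the 4 IL-1β bars 96.0 to 115, and the red part shortens more than the green.

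The miRNAs whose profile over the 8 libraries was most like that of miR-708-5p, among 194 others with a mean of at least 50 counts, were miR-181a-1-3p, miR-6412, miR-381-3p, let-7e-3p and miR-152-3p. Their Pearson correlations with miR-708-5p on the scale of log2(CPM + 1) were 0.91, 0.90, 0.85, 0.85 and 0.84. These values are a description over 8 points that share library depth, scaling and the difference between the groups. With the group means removed the correlations were 0.78, 0.65, -0.14, 0.58 and 0.80. Of the 5, miR-381-3p was called, with a log2 fold change of -0.37, and it was also the one whose likeness did not persist within groups. For comparison, a list of 15 miRNAs held to respond to IL-1 or NF-κB was used. It was chosen with earlier results of these data known, so nothing is read from its count of calls. Of its 13 tested members 2 were called, against 1.95% of all tested miRNAs. These were miR-21a-5p (log2 fold change 0.75, SE 0.105) and miR-222-3p (0.62, SE 0.0842), both higher. miR-146a-5p had the highest log2 fold change of the list, 2.09 (SE 0.562), with means of 86.1 and 373 normalized CPM, but was not called here. The paper, after batch correction, reported it as the miRNA most raised by IL-1β, with a similar rise by qPCR. It is held to be induced by NF-κB and to repress NF-κB signaling. The paper, however, reported less NF-κB activation in cartilage when miR-146a-5p was inhibited. The list contained none of the 6 arms, and its median log2 fold change was 0.19.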

How the data were processed

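The authors deposited 1 table of counts, with 1 row per mature miRNA and 1 column for each of 8 small RNA libraries. Reads were trimmed with cutadapt, aligned to mm10 with STAR and counted with featureCounts, and the version of STAR differed between the submitters' processing notes (2.4.2a) and the methods of the paper. Batch correction with RUVseq was described. All values were whole and column totals differed, which cannot tell raw from corrected counts, and the values were taken as raw. Treatment of reads mapping to several places was not given in the sources used here. Another column, the length in nt, was used only to give lengths.

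All 8 columns matched a sample by name. The quasi-likelihood test of edgeR 4.0.16 (TMM, robust fit, two-sided) in R 4.3.3 was fitted over 564 miRNAs above 1 CPM in at least 4 libraries, with Benjamini-Hochberg adjustment over all of them. A miRNA was called at an adjusted p under 0.05 together with a log2 fold change beyond 0.3 in size, the limits that the study applied to its miRNAs. The SE is the log2 fold change divided by the square root of F. Floors use 3 counts and, like the counting errors, cover counting error only. The script was tested on simulated data. Named miRNAs were the 6 arms, names sharing a seed or the miR-28 name, and the 5 most like miR-708-5p. Markers of cell types were named from their lists, and 3 members of the NF-κB list were named after their values were seen. Members, lists and tests were chosen with earlier results of these data known. No 2 libraries of a group agreed within sampling noise (chi-square per degree of freedom of at least 4.54). DESeq2 1.42.0 was an alternative.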

Additional observations from a re-analysis of the deposited data

Results flagged for a closer look

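Of 20 sets of 4 libraries examined (levels of the 6 arms, the 3 arm ratios and the shared-seed sum, in each group), none held a library whose gap to the nearest other exceeded 0.829 of the range, Dixon's 95% critical value.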

How the results depend on the processing

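Fold changes and arm ratios of the family kept their direction under all alternatives, except that of miR-151-5p without IL-1β replicate 4 and that of the miR-151 arm ratio, which lay near 0 (-0.09 to 0.01). Over 15 alternatives miR-708-5p was called in 13 and miR-28a-3p in 5. Leaving out each library, the log2 fold change ranged from -0.71 to -0.57 for miR-708-5p, -0.84 to -0.51 for miR-28a-3p and -0.025 to 0.16 for miR-151-5p. miR-28a-3p was also called with no filter on low counts (-0.70), with the replicate number as a block (-0.71) and with 1 factor of unwanted variation in the model (-0.68), and not by DESeq2 (-0.69). The number of miRNAs called was 11, and 6 to 19 without each library, with 6 without vehicle replicate 4, 7 without vehicle replicate 2 or IL-1β replicate 3, and 19 without IL-1β replicate 4. It was 19 with the block and 28 with the factor, of which 5 and 7 were lower, against 3 of 11, 5 of 14 with no filter, and 1 without IL-1β replicate 1. The deviations of same-numbered libraries from their group means had correlations of 0.17, -0.34, 0.10 and -0.18 for pairs 1 to 4 over 195 miRNAs. Vehicle replicates 1 and 3 correlated best with the IL-1β library of their own number, and replicates 2 and 4 did not. With so few libraries this cannot exclude pairing, and the numbers were not taken as pairs. The block changed no other call of the family. The difference in arm ratio of miR-708 ranged from -0.91 to -0.66, that of miR-28a from 0.38 to 0.69, and the shared-seed sum differed by -0.44 to -0.35. At 12 to 37 counts per library, miR-708-3p limits the precision of the miR-708 ratio.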
